A study of Mus musculus with 20 samples.

Results

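Cryab, Cryba4 and Mip are genes best known from the eye lens, and they are described here in RNA of mouse retina and mouse cortex. Members were taken by gene symbol from the platform annotation. Each of the 3 genes had 1 probe, out of 9230 genes with a named probe, and each probe had a value on all 20 arrays. The arrays are 1-colour CodeLink arrays (GE Healthcare, formerly Amersham), which bind biotin-labelled RNA to short probes. The retina RNA came from a pool of adult C57/B6 mice, and the cortex RNA from a pool of Swiss-Webster mice at postnatal day 1. Aliquots of both pools were hybridised at a first site and at site 2, on 5 arrays per pool and site, which makes 4 groups. All replicates are technical, from pooled RNA, so p-values cover how arrays vary and say nothing about animals. Tissue, strain and age differ together between the pools and cannot be told apart. Intensities have no unit, and 1 is close to the median probe of an array.

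The transparent lens is built of fibre cells packed with crystallins, which keep the cytoplasm clear and refractive. Alpha crystallins are small heat shock proteins that hold unfolding proteins in solution. Cryab encodes alphaB-crystallin, which is also made outside the lens, in muscle, glia and pigment epithelium, and which binds intermediate filaments. Beta crystallins such as that of Cryba4 are structural proteins of another family, shared with the gamma crystallins, and their transcripts have also been found in retina. Mip, also called aquaporin 0, is the main membrane protein of lens fibre cells and belongs to the water channel family.

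The sequences before the transcription start are shown because Cryba4 and Mip, both strongly expressed in lens fibres, differed in these arrays. They come from RefSeq, build GRCm38.p6, run 5′ to 3′ on the gene's strand and end at the base before the start. Of the 3 genes, Cryba4 and Mip had an entry in the table. Capitals mark each match to TGCTGA, a core part of the recognition element of Maf transcription factors, which switch on crystallin genes in lens. The Cryba4 window is chr5:112252519-112252768 on the minus strand, and the Mip window is chr10:128225560-128225809 on the plus strand.
Cryba4: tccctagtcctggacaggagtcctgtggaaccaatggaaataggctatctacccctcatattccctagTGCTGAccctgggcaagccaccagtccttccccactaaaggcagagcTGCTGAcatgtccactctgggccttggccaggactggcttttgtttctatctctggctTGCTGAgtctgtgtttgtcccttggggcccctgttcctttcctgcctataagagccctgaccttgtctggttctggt
Mip: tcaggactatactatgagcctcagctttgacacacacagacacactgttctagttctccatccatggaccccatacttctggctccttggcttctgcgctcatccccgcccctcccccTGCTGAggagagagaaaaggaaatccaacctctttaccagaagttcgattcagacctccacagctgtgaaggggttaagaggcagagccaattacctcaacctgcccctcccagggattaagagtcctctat

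The Cryba4 window held TGCTGA 3 times, beginning 182, 135 and 77 bases before the start. The Mip window held it 1 time, beginning 132 bases before the start. Both strands were searched, and 16.1% of the 32851 promoter windows of the same length in the table held at least 1 match, while 0.146% held 3 or more. Among the windows of crystallin and lens fibre genes in the table, 16 of 29 held a match. GAANNTTC, the core to which heat shock factors bind, was in neither member's window and in 6.69% of all windows. TAATCC, a site of the photoreceptor factors Crx and Otx2, was read on the opposite strand of the Mip window, and 6.25% of all windows held it. No match overlapped another. These matches describe letters in a window and not binding.

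The labelled tissues were checked against their defining markers. All 7 retina markers measured were called higher in retina at both sites, from Rcvrn, recoverin (31.4-fold and 36.7-fold), to the cone opsin gene Opn1mw (172-fold and 173-fold) at the first site. The rod genes Gnat1, transducin, Sag, arrestin, and Rom1 differed between sites, at 40.5-fold, 73.7-fold and 64.2-fold at the first site against 1152-fold, 726-fold and 563-fold at site 2. In cortex the Gnat1 range was 0.905 to 5.24 on first-site arrays but 0.0954 to 0.203 on those of site 2. The corresponding ranges were, for Sag 0.462 to 2.37 and 0.178 to 0.239, and Rom1 0.381 to 1.70 and 0.175 to 0.231. All 3 were called lower in cortex at site 2. The first-site cortex arrays thus held more signal of rod genes, and the other 4 retina markers were not called between sites in cortex. In retina the summed intensity of the 7 retina markers was also lower at the first site (398 to 521) than at site 2 (592 to 646). All 4 cortex markers measured, such as Sox11, a factor of newborn neurons (81.6-fold and 81.2-fold), were called higher in cortex. A second, dimmer Sox11 probe differed by 1.08-fold and 1.24-fold and was not called. A probe was called in limma when the Benjamini-Hochberg adjusted p over all 10339 tested probes was under 0.05 and the difference at least 2-fold. Array medians lay between 0.927 and 0.963. Cortex replicate 5 of site 2 stood apart, with 486 probes more than 4-fold from the median of the other arrays of its group, against 10 to 136 on the other 19 arrays. On that array 461 of these probes read higher and 25 lower, and results that rest on it are given with and without it.

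Cryab levels in retina were 5.98 times those in cortex at the first site and 6.32 times at site 2. Retina arrays of the first site read 5.16, 6.90, 7.35, 6.39 and 5.61, and cortex arrays 0.942, 1.03, 1.05, 1.22 and 0.983. Every retina array therefore lay above every cortex array, with replicate 3 the highest in retina and replicate 1 the lowest. At site 2 the retina arrays read 3.44, 3.66, 3.16, 3.59 and 3.48, and the cortex arrays 0.764, 0.483, 0.463, 0.654 and 0.443. The tissues were again fully apart, and cortex replicates 1 and 4 stood above the other 3 cortex arrays. The log2 difference was 2.58 (SE 0.14, adjusted p = 3.7e-12 in limma) at the first site and 2.66 (SE 0.14, adjusted p = 2.5e-12) at site 2. Leaving out cortex replicate 5 of site 2 gave 2.58. In pooled tissue, fewer cells of a type and less RNA per cell cannot be told apart.

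Cryba4 levels in retina were 7.42 times those in cortex at the first site and 7.78 times at site 2. It read 1.41, 1.49, 1.70, 1.52 and 1.53 on the retina arrays of the first site and 0.269, 0.183, 0.219, 0.223 and 0.154 on the cortex arrays. At site 2 it read 1.72, 1.45, 1.60, 1.59 and 1.52 in retina and 0.226, 0.1998, 0.179, 0.254 and 0.166 in cortex. The tissues did not overlap at either site, and the retina arrays of both sites covered nearly the same range. The log2 difference was 2.89 (SE 0.13, adjusted p = 3.5e-13 in limma) at the first site. At site 2 it was 2.96 (SE 0.13, adjusted p = 2.5e-13), and 2.89 without cortex replicate 5 of site 2.

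Mip gave no call between the tissues. Retina arrays of the first site read 0.0599, 0.113, 0.0931, 0.0713 and 0.0760, and cortex arrays 0.0432, 0.0895, 0.0535, 0.0822 and 0.0698. The tissues overlapped, at 1.24-fold (log2 difference 0.31, SE 0.58, adjusted p = 0.68 in limma). At site 2 retina arrays read 0.140, 0.117, 0.101, 0.107 and 0.0769, and cortex arrays 0.128, 0.122, 0.0992, 0.114 and, on replicate 5, 1.93. That last value was 16.4-fold above the median of the other 4 cortex arrays, while Cryab and Cryba4 differed from that median by -0.34 and -0.36 log2 units there. The site 2 difference was -0.93 (SE 0.58, adjusted p = 0.17 in limma), and -0.12 (adjusted p = 0.67) without replicate 5, when the exact 2-sided permutation p of 5 against 4 arrays was 0.57. On the other 19 arrays the Mip probe lay between percentiles 6.80 and 20.6 of all probes, and on cortex replicate 5 of site 2 at percentile 64.2. With no detection call, levels this low were not told from background. The 95% interval of the log2 difference ran from -0.90 to 1.52 at the first site and from -2.14 to 0.28 at site 2.

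Cryab and Cryba4 thus made 2 calls of 3 genes at either site, both higher in retina. The share called over all tested probes was 24.9% for the first site, with 11.9% standing above cortex and 13.0% below it. For site 2 the share was 24.6%, made of 11.1% above and 13.5% below. Both also had all retina arrays above all cortex arrays, as did 26.2% and 24.0% of tested probes. By exact 2-sided permutation of 5 against 5 arrays each of these 4 differences had p = 0.0079, unadjusted, the smallest that the 252 splits can give.

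**Figure D1:**
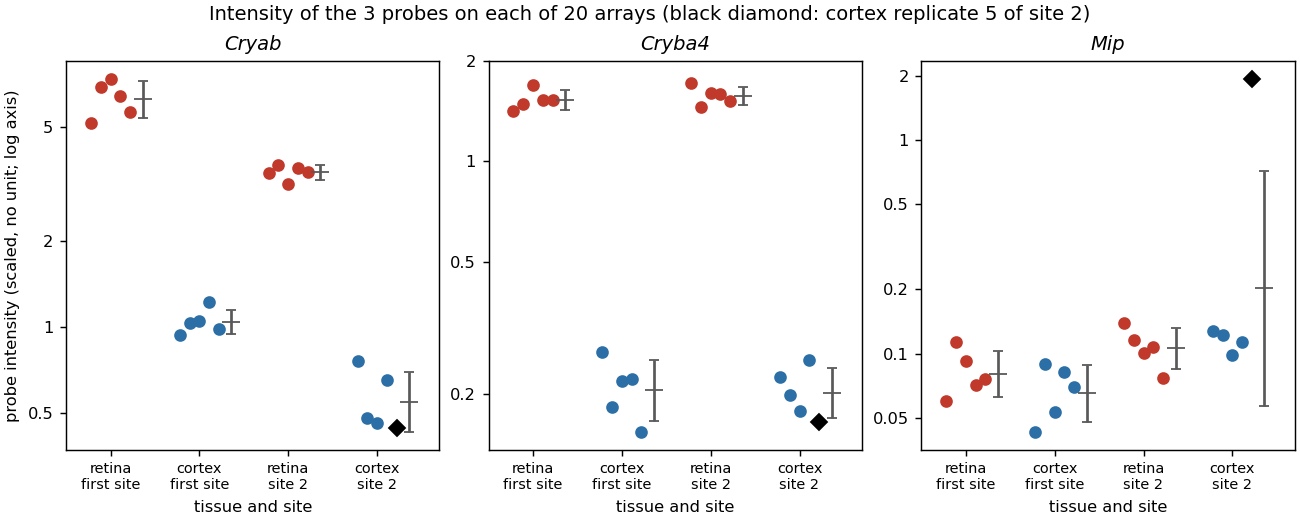
Intensity of the Cryab, Cryba4 and Mip probes on each array (log axis, no unit), by tissue and site, with red points for retina, blue points for cortex and grey bars for the geometric mean ± SD on the log2 scale (n = 5 arrays). Cryab and Cryba4 lie higher in retina at both sites, Cryab lies lower at site 2 in both tissues, and the black diamond, cortex replicate 5 of site 2, reads 1.93 for Mip.

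The spread between arrays differed among the groups. For Cryab the SD was 0.21 log2 units in first-site retina, 0.14 in first-site cortex, 0.08 in site 2 retina and 0.35 in site 2 cortex. For Cryba4 it was 0.10, 0.31, 0.09 and 0.25 in the same order, so that the brighter tissue had the smaller spread. The median over all tested probes was 0.16, 0.17, 0.16 and 0.23. The Mip SD was 0.36, 0.44 and 0.32 in the first 3 groups and 1.82 in site 2 cortex, where 97.8% of tested probes had a smaller one and where it was 0.16 without replicate 5.

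The tissue differences of the 3 genes did not pass a test of the difference between sites. The change from the first site to site 2 was 0.08 log2 units for Cryab (95% interval -0.33 to 0.48, adjusted p = 0.84 in limma). It was 0.07 for Cryba4 (-0.32 to 0.45, adjusted p = 0.86). For Mip it was -1.24 (-2.95 to 0.48, adjusted p = 0.39), and -0.42 without cortex replicate 5 of site 2. Of all tested probes, 3.98% passed this test.

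Between sites the same pools gave different Cryab readings. In retina Cryab was 1.80-fold lower at site 2 (log2 difference -0.85, SE 0.14, adjusted p = 5.9e-05 in limma), and in cortex 1.90-fold lower (-0.93, SE 0.14, adjusted p = 2.5e-05). All site 2 arrays lay below all first-site arrays of the same tissue, as for 22.3% of probes in retina and 18.7% in cortex. Both differences were under 2-fold and were not called, where 6.24% of probes were called in retina, but the cortex difference passed 2-fold without cortex replicate 1 of site 2 (-1.05) and after quantile normalization (-1.03). Cryba4 differed between sites by 0.04 in retina (adjusted p = 0.81 in limma) and by -0.02 in cortex (adjusted p = 0.89), and its arrays overlapped. After quantile normalization the Cryba4 cortex difference was -0.41 (adjusted p = 0.0082, under 2-fold). The log2 ratio of Cryab to Cryba4 within each array was 2.03 ± 0.15 at the first site and 1.14 ± 0.15 at site 2 in retina (SD, n = 5). In cortex it was 2.34 ± 0.33 and 1.44 ± 0.19 (SD, n = 5). This ratio was chosen after the values of both genes were seen and restates their site differences as a description. The summed retina markers also read higher in first-site cortex (4.04 to 13.3) than in site 2 cortex (2.80 to 4.83, or 2.80 to 3.29 without replicate 5), with an overlap only through replicate 5, and their part in the Cryab cortex difference was not tested.

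The order of the 4 group levels was complete for Cryab and partial for Cryba4 and Mip. Cryab ran from first-site retina (geometric mean 6.23) through site 2 retina (3.46) and first-site cortex (1.04) to site 2 cortex (0.548), and no neighbours in this order overlapped. Between sites 22.3% of tested probes were apart in this direction in retina and 18.7% in cortex. Site 2 retina against first-site cortex mixes tissue with site, and no share over all probes was computed for it. For Cryba4 both retina groups (1.53 and 1.57) stood above both cortex groups (0.206 and 0.202), and groups of the same tissue did not differ beyond their spread. For Mip, retina of the first site (0.0807) and cortex of the first site (0.0653) overlapped, as did retina (0.106) and cortex (0.202, or 0.115 without replicate 5) of site 2. Mip in cortex was called 3.10-fold higher at site 2 than at the first site (1.63 log2, adjusted p = 0.027 in limma), with all site 2 arrays above all first-site arrays, as for 13.2% of probes. In that comparison 7.21% of tested probes were called, 5.29% of all as higher at site 2. Of those calls 73.4% were higher at site 2, and 49.2% after quantile normalization, 54.0% with the floor at the 25th percentile, 57.6% with the offset and 57.3% among brighter probes only. Leaving out cortex replicate 5 of site 2 ended that Mip call (0.82, adjusted p = 0.0047 in limma, under 2-fold), as did leaving out first-site cortex replicate 1 (1.48, adjusted p = 0.061) or 3 (1.56, adjusted p = 0.052), and 5 other settings given at the end. In retina Mip differed by 0.40 between sites and was not called.

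**Figure D2:**
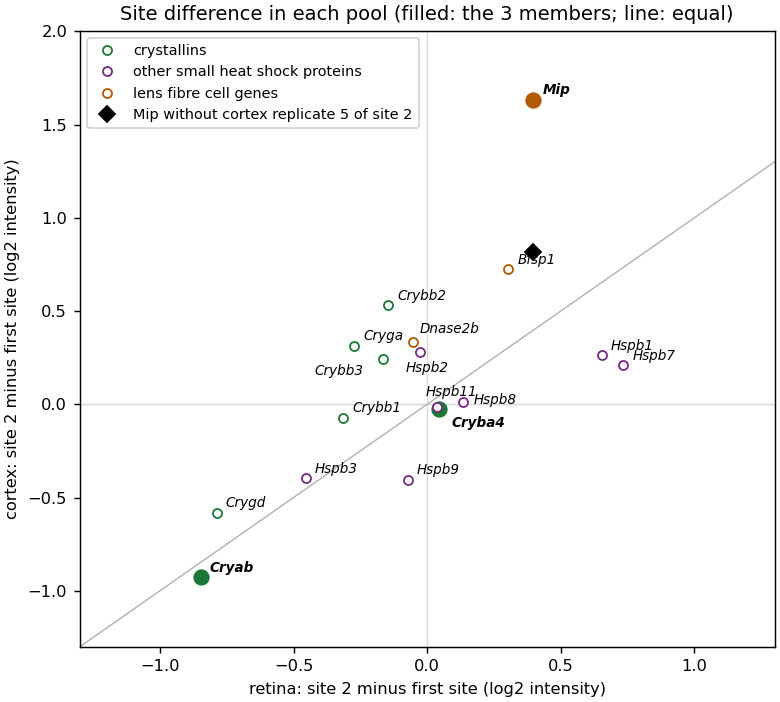
Difference between sites in log2 intensity, in retina (horizontal) and in cortex (vertical), for crystallins, other small heat shock proteins and lens fibre cell genes, with the 3 described genes filled and a line where both tissues are equal. Cryab lies at -0.85 and -0.93, Cryba4 near 0 in both, and Mip at 0.40 and 1.63, or 0.82 in cortex without replicate 5 of site 2 (black diamond).

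Some other crystallins were also called higher in retina. Of 16 alpha, beta and gamma crystallins listed, 7 had a probe and all 7 were tested, Cryab and Cryba4 among them. At the first site 5 were called higher in retina and 0 lower, with a list median of 1.63, against -0.04 over all tested probes. At site 2, 4 were called higher and 0 lower, with a median of 1.05 against -0.05. Without Cryab and Cryba4 these counts were 3 and 2 of 5, with medians of 1.10 and 0.86, where 11.9% and 11.1% of all probes were called higher. Crybb3 and Crygd were called at neither site. The lists were chosen with results of these arrays known, so the counts are descriptions.

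Among the beta crystallins, Crybb2 had first-site means of 1.16 in retina and 0.233 in cortex (log2 difference 2.31, and 1.63 at site 2, both called). For Crybb1 they were 0.703 and 0.329 (1.10, called, and 0.86 at site 2, not called). Its site 2 value was called after quantile normalization (1.14), and its first-site call was lost with an offset of 0.1 added to each intensity (0.91). Crybb3 differed by 0.86 and 0.44 and was not called. For each of these 3 genes every retina array lay above every cortex array at both sites, as did 26.2% and 24.0% of tested probes. The same held for Cryab, Cryba4, Cryga and Crygd. Of the gamma crystallins, Cryga differed by 1.63 and 1.05 and was called at both sites, but at site 2 it fell under 2-fold when cortex replicate 3 (0.97) or 5 (0.99) was left out. It was dim in cortex (0.120 and 0.149), and with a floor at the 25th percentile neither site gave a call (0.93 and 0.66), nor did site 2 with an offset of 0.1 (0.71). Crygd differed by 0.42 and 0.21, under 2-fold. Probes of the Cryg and Crybb families may share RNA with related genes. This was not checked, so single members of these families are uncertain.

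The few lens fibre cell genes measured gave no call. Of 12 listed, 3 were measured, Mip among them, and 0 were called between the tissues at either site. Over all tested probes 24.9% and 24.6% were called, and 0 of 3 cannot be told from these shares. Bfsp1, which encodes filensin of the lens beaded filament, differed by 0.13 and -0.29 (adjusted p = 0.86 and 0.67 in limma), and at site 2 by 0.14 without cortex replicate 5 and -0.96 without retina replicate 2. Dnase2b, the lens nuclease that removes fibre cell nuclei, differed by -0.20 and -0.59 (adjusted p = 0.18 and 7.5e-04 in limma, with 4 cortex arrays at site 2), under 2-fold. The summed intensity of Mip, Bfsp1 and Dnase2b was 0.777 to 0.907 in first-site retina and 0.775 to 0.983 in first-site cortex. At site 2 it was 0.655 to 2.45 in retina and 0.989 to 1.27 on the 4 cortex arrays with all 3 values, since Dnase2b was blank on cortex replicate 5. The upper end in retina is replicate 2, with a Bfsp1 value of 1.91 where the rest of its group reached 0.276.

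**Figure D3:**
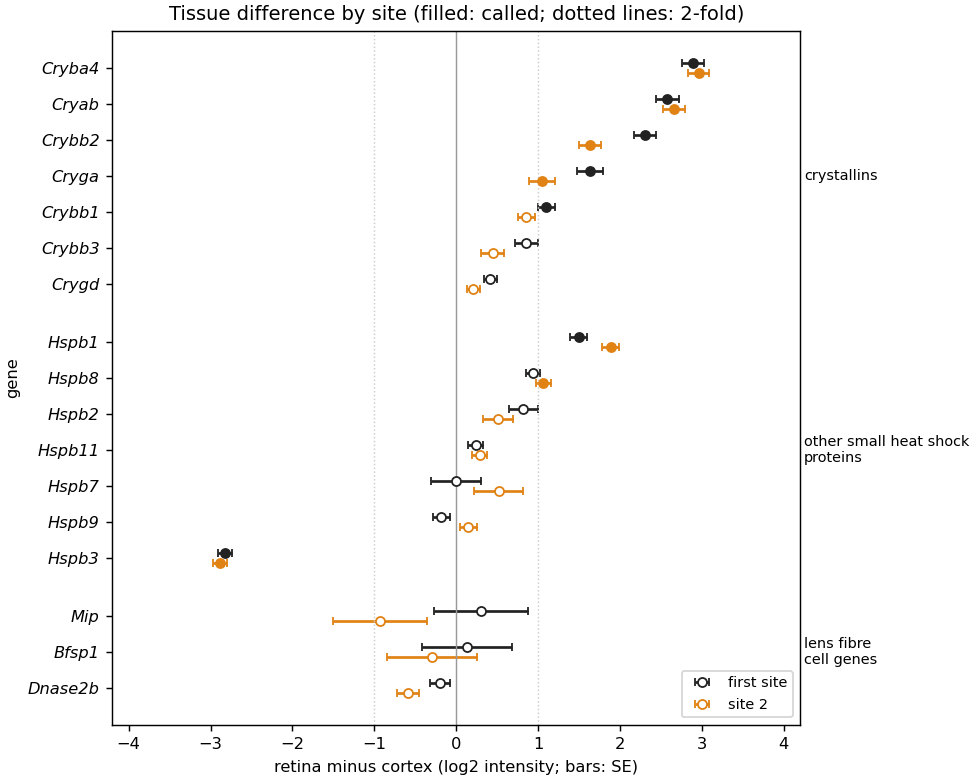
Retina minus cortex difference in log2 intensity with its SE, at the first site (black) and at site 2 (orange), for crystallins, other small heat shock proteins and lens fibre cell genes, filled where called and with dotted lines at 2-fold. The 7 crystallins all lie above 0, Cryba4 and Cryab furthest, Hspb3 lies near -2.8 at both sites, and the 3 lens fibre cell genes lie within 2-fold of 0.

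Of the genes listed as small heat shock proteins, Cryab among them, 8 were tested. Whether each listed gene, such as Hspb11, belongs to the family of Cryab was not checked. Apart from Cryab itself, 1 of 7 gave a higher call in retina at the first site, against 2 at site 2, while 1 was called lower at both. The share of all probes called higher was 11.9% and 11.1%, so the first-site count is near it. Hspb1, known as HSP25 in mouse, differed by 1.49 and 1.89 and was called at both sites. Hspb8, which works with the co-chaperone Bag3, differed by 0.94 (not called) and 1.06 (called), and its site 2 value was 0.98, not called, when cortex replicate 5 was left out. Hspb3, a family member known from muscle, was called lower in retina at both sites (-2.83 and -2.88). Hspb2 (0.82 and 0.51), Hspb11 (0.24 and 0.29), Hspb7 (-0.0048 and 0.52) and Hspb9 (-0.18 and 0.15) were not called.

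The neighbours of the members on their chromosomes were read from the RefSeq gene order of GRCm38.p6. Hspb2 lies next to Cryab, and the gene on its other side, 2310030G06Rik, differed by -1.05 (called) and -0.60 (not called); that call was lost in 5 settings, the lowest of which gave -0.30. Crybb1 lies next to Cryba4 on the opposite strand and was described above. On the other side the nearest gene with a probe, Pitpnb, a phosphatidylinositol transfer protein, differed by 0.21 and -0.34. It is not adjacent, as 22 genes without a probe lie between it and Cryba4. Around Mip the nearest genes with probes were Rbms2 (0.05 and 0.22) and Timeless (-0.18 and 0.07), neither called. Between them and Mip lie 3 genes and 1 gene without a probe.

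Among stress-inducible chaperones and heat shock factors, 3 of 10 tested genes were called, the same at both sites, near the 24.9% and 24.6% of all probes (median -0.14 and -0.17). Hspa1b, an inducible HSP70 gene, stood 12.8-fold and 15.2-fold above cortex. Its near copy Hspa1a was not tested, and the probes of this pair may share RNA. Hspa4l, an HSP110 chaperone, was also higher in retina (2.46 and 1.98), and its relative Hsph1 lower (-1.12 and -1.34). Hspa8, the constitutive HSP70 member, differed by -0.12 and -0.0012. Of 5 listed partners of alphaB-crystallin 4 were tested and 0 called, with Vim, vimentin, at 0.11 and 0.14. This count cannot be told from the 24.9% and 24.6% of all probes called.

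Glia and pigment epithelium also make alphaB-crystallin, and their markers were read beside it. Over all tested probes 11.9% were called higher in retina at the first site and 11.1% at site 2. The shares called lower were 13.0% and 13.5%. The counts of muscle markers called higher, given below, lie near the former. Of 9 Müller glia markers, 6 were called at either site, all higher in retina, with Car2, carbonic anhydrase 2, at 4.00 and 4.32 and Sox9 at -0.05 and -0.26. Their summed intensity was 198 to 224 in first-site retina and 56.6 to 64.8 in first-site cortex, and 180 to 185 against 43.9 to 48.4 at site 2. The largest part of it was Glul (95.5 to 119.6 in retina and 33.9 to 40.3 in cortex for the first site). Astrocyte markers were called higher in 4 of 7 cases at each site and lower in 1 and 2, with Slc1a2, a glutamate transporter, at 3.19 and 2.50 and Gfap at -0.15 and -0.19. Those called lower were Gja1, connexin 43 (-2.92 and -2.66), and at site 2 Aldh1l1 (-1.13, a call lost in 6 settings). The Aldh1l1 probe was dim, with site 2 means of 0.0462 in retina and 0.101 in cortex. Their sum was 67.9 to 77.0 in retina and 21.3 to 26.4 in cortex for the first site, and 43.7 to 50.004 against 12.0 to 15.4 for site 2. It was mostly Aldoc, aldolase C (63.5 to 72.1 in retina and 18.5 to 22.8 in cortex for the first site). Pigment epithelium markers were called higher in 4 of 7 cases at each site and lower in 0 and 1, with Rpe65, the retinoid isomerase, at 4.63 and 4.99 and Mitf at 0.47 and 0.91. Their summed intensity was lower in retina, at 45.1 to 47.6 against 53.8 to 71.4 at the first site and 41.8 to 45.3 against 82.0 to 87.9 at site 2 (over the arrays with all 7 values, 3 to 5 per group). It was mostly Ttr, transthyretin, which choroid plexus also makes (first-site means 36.4 in retina, 60.8 in cortex, and 33.6 and 81.1 at site 2). Oligodendrocyte markers were called higher in 0 and lower in 3 of 6 cases at each site, with Olig1 at -5.11 and -4.22 and Mobp at -0.21 and 0.19. Their sum was 2.10 to 2.66 in retina and 5.34 to 6.66 in cortex for the first site, and 2.69 to 3.66 against 5.45 to 6.44 for site 2. Striated muscle markers were called higher in 2 and 1 of 11 cases and lower in 3 and 2, with Mylpf, a fast muscle myosin light chain, at 2.43 and 2.01 and Des, desmin, at -0.19 and -0.68. Their sum was 3.81 to 4.02 against 2.64 to 2.85 for the first site, and for site 2 the tissues overlapped, at 2.76 to 3.30 against 3.02 to 5.33, or 3.02 to 3.21 without cortex replicate 5. Aqp4 stands in both glia lists, Vim among the Müller glia markers, and Gfap and Des among astrocyte and muscle markers. Rpe65 and Aldh1l1 at site 2 and Hspa4l at the first site were fitted with 4 cortex arrays and Crym at site 2 with 4 retina arrays, the other value being missing. The part of these cells in the Cryab difference was not tested.

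Factors of lens development are shared with retina and brain. Of 8 tested, 4 and 3 were called higher in retina, and 0 and 2 lower. Over all tested probes 11.9% and 11.1% were called higher, and 13.0% and 13.5% lower. Pax6, a master factor of the eye, stood 9.25-fold and 10.3-fold above cortex. Meis1 (2.65 and 2.59) and Prox1 (2.24 and 1.54), homeobox factors, were called higher at both sites. Hsf4, the heat shock factor of lens, was called at the first site (2.43) and not at site 2 (0.85). Without cortex replicate 5 of site 2 it was called there too (2.14), and it was among the dimmest of these probes (first-site means 0.276 in retina, 0.0514 in cortex). Its first-site call was lost in 6 settings: the floor at the 25th percentile (0.51, and -0.39 at site 2), the offset (1.29), and leaving out retina replicate 3 or cortex replicate 1, 2 or 3 of the first site (2.33, 2.34, 2.25 and 2.32). Pitx3, which acts in lens and midbrain, differed by -0.80 (not called) and -1.07 (called, and lost with the offset at -0.97). Six3 differed by 0.04 and 0.72 and was not called. Maf itself, to whose element the TGCTGA motif belongs, had means of 0.0562 in retina and 0.102 in cortex, and of 0.129 and 0.280 at site 2 (-0.87 and -1.11, the latter called). The Maf site 2 call was lost in 3 settings, the floor among them (-0.53).

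Among the water channels, Mip was 1 of 10 aquaporins tested. At the first site 3 were called, near the 24.9% of all tested probes. At site 2, 4 were called, Aqp8 among them, against 24.6% of all. Aqp1 stood 14.2-fold and 10.6-fold above cortex, and Aqp4, the glial water channel, differed by 2.08 and 1.67. Aqp3 was called lower in retina at both sites (-1.68 and -1.86). Aqp8 differed by -0.02 and -1.61, and its site 2 call was lost in 22 settings, among them array quality weights (-0.49). Of 4 enzymes and other genes with a crystallin name, only Cryz, a quinone oxidoreductase, was called between tissues (1.20 and 1.10). That count is near the same shares of all probes. The offset ended both Cryz calls (0.99 and 0.70), and the floor at the 25th percentile that of site 2 (0.45). Crym, which binds thyroid hormone, differed by -0.01 and 0.08.

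Genes with profiles most like each member were sought by the root mean square distance of centred log2 values over the 20 arrays, among 8612 named probes with values on all arrays. For Cryab these were Coq8a, a kinase of coenzyme Q synthesis (0.20), Gpr108 (0.22) and Znrd1as (0.23), against a median distance of 1.49. They differed between tissues by 2.19 to 2.76 at the first site. For Cryba4 they were Oasl2 (0.20), Plpp2, a lipid phosphatase (0.21), and Aldoa, aldolase A (0.22), against a median of 1.56. Without cortex replicate 5 of site 2 the first 3 for Cryab were the same, and Septin4 (0.22) took the place of Aldoa. For Mip they were Ambn (0.27), Bcl2l11 (0.34) and Gfra1 (0.36). Without that array Ampd3 (0.24), Ambn (0.26) and Papss2 (0.28) were closest to Mip, so the likeness of the other two rested on it.

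**Figure D4:**
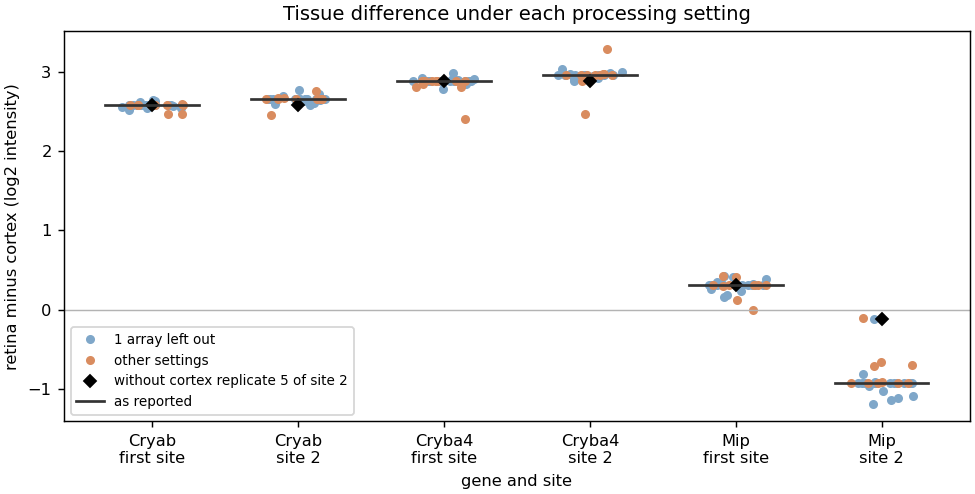
Retina minus cortex difference in log2 intensity of Cryab, Cryba4 and Mip at each site under each processing setting, with blue points for 1 array left out, orange points for other settings, a bar for the reported value and a black diamond for the value without cortex replicate 5 of site 2. Cryab stays between 2.45 and 2.78 and Cryba4 between 2.41 and 3.29, while Mip at site 2 moves from -0.93 to -0.12 without that array.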

How the data were processed

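The deposited values were linear intensities of 10500 probes on 20 arrays. Per the labels' protocols, the authors labelled total RNA with biotin following CodeLink instructions. How the spots were scanned, corrected and scaled is not stated in the labels. The 143 values at or below 0 and the like array medians point to background subtraction and a scaling of each array. Intensities were put on the log2 scale, values at or below 0 being missing. No further normalization was used, as array medians differed by at most 0.06 log2. Probes with values on at least 3 of 5 arrays in each group were tested (10339).

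Limma 3.58.1 in R 4.3.3 fitted 1 mean per group to all 20 arrays. Exact permutation tests used scipy 1.17.1 in Python 3.11.15, and the fit was tested on simulated data. Of 10500 probes, 9378 had 1 gene symbol, 8 several and 1114 none, and 9323 matched a RefSeq gene (GRCm38.p6, names and gene order only). A gene's brightest probe stood for it. Named were the 3 members, tested genes of the crystallin, lens fibre and small heat shock lists, chromosome neighbours and the 3 most similar profiles. From the other lists the called gene with the largest difference and the gene nearest 0 were named. Aldh1l1, Aldoc, Aqp3, Aqp4, Gja1, Glul, Gnat1, Hsf4, Hspa4l, Hsph1, Maf, Meis1, Pitx3, Prox1, Rom1, Sag and Ttr were added after their values were seen. Members and lists were chosen with earlier results of these data known. The Cryab to Cryba4 ratio and the similar profiles without cortex replicate 5 of site 2 were also added after the data were seen.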

Additional observations from a re-analysis of the deposited data

Results flagged for a closer look

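Of 68 groups of arrays checked, for 17 crystallin, lens fibre and small heat shock genes, 10 held an array far from the others, where chance gives about 1 in 20. In 8 of these the array was cortex replicate 5 of site 2. On it Mip read 1.93 (others 0.0992 to 0.128), Crybb2 0.277 (0.346 to 0.368), Crybb3 0.3004 (0.394 to 0.428) and Crygd 1.27 (1.60 to 1.63). Hspb1 read 0.429 there (0.576 to 0.610), Hspb3 2.09 (2.58 to 2.70), Hspb8 0.639 (0.834 to 0.895) and Hspb9 3.48 (4.70 to 5.21). Mip thus read high on this array and the other 7 low. Bfsp1 read 1.91 on retina replicate 2 of site 2 (others 0.134 to 0.276), and Hspb9 read 5.84 on retina replicate 3 of the first site (others 5.32 to 5.43).

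The tissue difference itself differed between sites for 7 of the named genes. Six3 changed by 0.68 log2 (0.04 at the first site, 0.72 at site 2, adjusted p = 0.022 in limma), and Emx1, a cortical factor, by 1.16 (-3.58 and -2.42, adjusted p = 0.011). The size of the Emx1 differences depended on dim values. With the floor at the 25th percentile its site 2 difference was -0.32 and not called, and its first-site difference shrank to -1.11 among the settings run. Prox1 changed by -0.71 (2.24 and 1.54, adjusted p = 0.017) and Ttr by -0.53 (-0.74 and -1.27, adjusted p = 0.014). The rod genes changed most, Gnat1 by 4.83 (5.34 and 10.17, adjusted p = 4.6e-05), Sag by 3.30 (6.20 and 9.50, adjusted p = 4.9e-04) and Rom1 by 3.13 (6.005 and 9.14, adjusted p = 1.1e-04), all with higher cortex readings at the first site. The summed retina markers also read higher in retina at site 2 (592 to 646) than at the first site (398 to 521).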

How the results depend on the processing

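All 62 tissue differences of Cryab and of Cryba4, over both sites and every setting run, kept their direction and stayed called, with adjusted p in limma from 1.9e-15 to 1.2e-07. Those of Mip, 60 in all, stayed uncalled, 1 at exactly 0 (adjusted p 0.101 to 1). Mip had no value among probes above the 25th percentile. The difference between sites needs all 4 groups and has no value with only the groups compared. The cause of the changes below was not tested. The Mip site difference in cortex was lost with quantile normalization (1.17), a floor at the 25th percentile (0.66), an offset of 0.1 (1.02), array quality weights (0.94) and only the groups compared (1.63, adjusted p = 0.10), and ran from 0.82 to 1.89 with 1 array left out. The Cryab site difference in cortex became called with quantile normalization (-1.03) and ran from -1.05 to -0.85 with 1 array left out. With the offset the Cryab difference between sites was -0.016. With 1 array left out, that of Cryba4 ran from -0.029 to 0.17 and its cortex site difference from -0.13 to 0.072. With quantile normalization these were 0.48 (adjusted p = 0.095) and -0.41 (adjusted p = 0.0082).

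The number of probes whose tissue difference changed between sites, 411, was 846 with the floor, 1355 with weights and 242 (without first-site retina replicate 2) to 860 (without cortex replicate 5 of site 2) with 1 array left out. The higher share of them was 58.2%, but 69.2% with quantile normalization, 41.1% with weights, 49.1% with a replicate block and 34.1% without cortex replicate 5 of site 2. Site calls in retina and cortex, 645 and 745, were 312 and 396 with the floor, 255 and 370 with the offset, and 367 and 443 among probes above the 25th percentile. Same-numbered arrays did not deviate together (30 pairs, r -0.107 to 0.0773), and a replicate block gave 224 probes changed between sites and moved no other count by over 1.5 times.

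Some named values turned sign in some settings. Most were near 0, but at site 2 Hsf4 (0.85 as reported), Gfra1 (-0.64) and Bfsp1 (-0.29) were not. At the first site these were Hspb7 (0.090 quantile, 0.12 floor at the 5th percentile, 0.024 offset, -0.18 to 0.30 with 1 array left out), Six3 (-0.0019 quantile, -0.020 to 0.098), Aqp8 (0.063 quantile, -0.27 to 0.16), Sox9 (0.087 quantile, -0.16 to 0.14), Crym (-0.048 to 0.032) and Gfra1 (-0.047 to 0.10). At site 2 they were Hspa8 (0.062 quantile, 0.018 centred, -0.041 to 0.028), Bfsp1 (-0.96 to 0.14), Timeless (-0.059 weights, -0.027 to 0.16), Gfra1 (0.13 weights, -0.88 to 0.074), Crym (-0.021 weights) and Hsf4 (-0.39 floor). No detection call was used, so dim probes such as Mip, Hspb7 and Aqp8 limit what can be told from background.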
